A study of Rattus norvegicus with 6 samples.

Results

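Cholesterol leaves the liver by several routes, and this account follows the transcripts of 10 genes that serve them, in livers of control rats and of rats on total parenteral nutrition (TPN, feeding by vein alone). The genes are Abcg5 and Abcg8 (export of cholesterol and plant sterols into bile), Abca1, Abcg1, Scarb1, Lcat and Pltp (traffic to and from high-density lipoprotein, HDL), Npc1 and Npc2 (exit of cholesterol from the lysosome) and Soat2 (esterification for storage and secretion). They were taken by symbol from a table of 25926 features, and each of the 10 symbols matched 1 row. All livers came from Sprague-Dawley rats labelled as 4 weeks old. The 3 control rats were labelled as normal and were given 0.9% saline. The 3 TPN rats were infused for 7 days and carry the label PNALD, for liver disease associated with parenteral nutrition. The sources used here do not give the route of the saline, the diet of the controls or the composition of the infusate, including its lipid source. Rats are named below by group and number, and the labels do not state that the numbers tie a control rat to a TPN rat.

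ABCG5 and ABCG8 are ABC transporters of the G subfamily that work as a pair in the canalicular membrane, where they move sterols into bile, and loss of either causes sitosterolemia, a disease of plant sterol build-up. ABCA1 loads cholesterol and phospholipid onto lipid-poor apolipoprotein A-I to begin an HDL particle, LCAT esterifies the cholesterol on it, and SR-BI, the product of Scarb1, brings HDL cholesterol back into the hepatocyte. Several of these genes are known targets of the liver X receptors (LXR), which sense oxysterols, while the enzymes that make cholesterol are driven by SREBP2, a factor that is held back when sterol is plentiful.

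Abcg5 and Abcg8 lie head to head, transcribed away from each other from a shared stretch of DNA. In the RefSeq promoter table of the rat assembly GRCr8, which is not the Rnor_6.0 build named for the deposited table, 7 of the 10 genes had an entry, and the first bases of the Abcg8 and Abcg5 transcripts were separated by only 205 bases, at chr6:15717731-15717935. Of the 16845 plus-strand starts in that table, 5.94% had a minus-strand start as close behind them. The stretch is shown because both genes begin at its ends, Abcg8 at the left on the minus strand and Abcg5 at the right on the plus strand. It is written 5′ to 3′ on the plus strand, and capitals mark GATAA (2 matches) and CCAAT (1 match, read here as ATTGG from the other strand).
Abcg8 to Abcg5: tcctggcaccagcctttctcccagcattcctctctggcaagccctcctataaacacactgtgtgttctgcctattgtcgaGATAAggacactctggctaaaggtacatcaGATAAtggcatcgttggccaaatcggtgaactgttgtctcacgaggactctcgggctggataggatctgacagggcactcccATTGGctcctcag

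Both motifs were chosen after the sequence had been read, were searched on both strands and did not overlap each other. Over all 33469 promoter windows of 300 bases, GATAA was found in 26.5% and CCAAT in 37.5%. Both were also found in the windows of Lcat and Npc2, so they are not particular to this pair. Motifs searched by plan were AGGTCA, the core letters of many nuclear receptor sites (16.2% of all windows), the direct repeat of those letters with 4 bases between that LXR binds (DR4, 0.00598%), the same repeat with 1 free base in each copy (0.179%), TCACNCCAC, a sterol regulatory element (1.12%), and GGGCGG, the GC box (33.1%). AGGTCA also lies within the exact repeat. These letters were not in the stretch between Abcg8 and Abcg5. Among the 7 windows, GGGCGG was found in those of Abca1, Npc1 and Npc2, AGGTCA in that of Npc2, and the other 3 planned motifs in none. The AGGTCA of Npc2 lies 10 bases past the gene start, within the transcript. The windows of Abcg5 and Abcg8 share 295 of their 300 bases, so they are not separate sequences.

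The Abca1 promoter is known for an imperfect form of this repeat that LXR binds. It was searched for after the sequence had been read and is shown as a known site of a member. The pattern comes from the ABCA1 promoter itself, so a match in the window of Abca1 is not a finding of these data. Its part in the values of Abca1 was not tested. The window of Abca1 holds it once on the gene's own strand, beginning 70 bases before the start, at chr5:72596526-72596546 of GRCr8 on the minus strand, and 0.0538% of all windows hold it. Capitals mark the match, in which the 5 bases in the middle were left free.
Abca1 repeat: gttTGACCGGTAGTAACCccg

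The deposited values are FPKM, fragments scaled to transcript length and to library size, so levels can be set side by side between genes. Each sample's FPKM added up to between 509630 and 544670, and the depth of the libraries is unknown. The 2 libraries that stood apart within their groups were control 2 and TPN 1. Among 13 measured acute-phase genes, which hepatocytes raise in inflammation, control 2 was the highest control in 13 and TPN 1 the highest TPN rat in 10. Lcn2, a gene of that response, had the highest log2 fold change of all features tested, 4.93 (limma adjusted p = 0.443). It measured 3.68, 112 and 7.29 FPKM in controls 1, 2 and 3 and 9127, 172 and 77.2 in TPN rats 1, 2 and 3. The log2 fold change of each of the 10 genes is therefore also given without both rats. Of 8 hepatocyte markers, 8 were present, with Alb, albumin, between 12828 and 48388 FPKM. Of 5 enterocyte markers, Si was listed at 0 in all 6 livers and Cdx2, Lct and Vil1 did not exceed 0.0790 FPKM. The remaining marker, Fabp2, was present in all 6 livers, at 2.60 to 5.75 FPKM in control and 2.58 to 3.85 FPKM in TPN.

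The tests used log2(FPKM + 1) in limma's moderated model over the 11362 features whose mean reached 1 FPKM, adjusted by Benjamini-Hochberg over all of them, and called a feature at an adjusted p under 0.05. Fold changes on this scale understate the change of low genes. All 10 members passed the filter, and none of the 10 was called, where 0.246% of all features were. At an unadjusted p under 0.05 there were 2 members, Abcg8 and Npc1, both lower in TPN, where 7.01% of all features were lower in that way, and none was higher, where 4.44% of all features were. In 4 members (Abcg5, Abcg8, Npc1 and Lcat) every TPN value lay under every control value, where 9.09% of all features did so, and in 1 member (Abca1) every TPN value lay above, where 8.02% did so. The median log2 fold change of the members was 0.017, and that of all features tested was 0.0065. Without TPN 1 the members' median was -0.24 and without control 3 it was -0.14. The members ran from -1.64 for Abcg8 to 0.42 for Abca1.

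**Figure D1:**
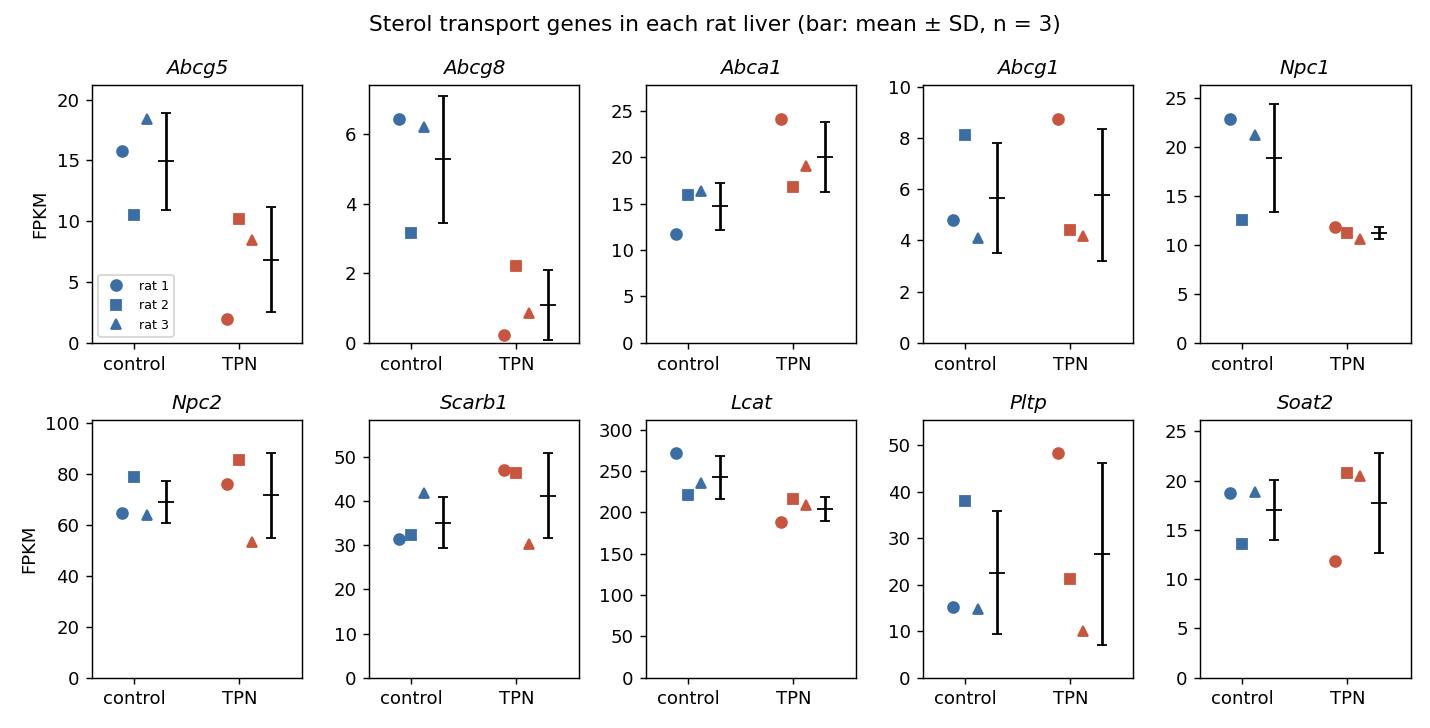
FPKM (vertical axis, linear from 0) of the 10 genes in each of 3 control and 3 TPN livers. Symbols mark rats 1, 2 and 3 of a group and the black bar is the mean ± SD. The TPN values of Abcg5, Abcg8, Npc1 and Lcat all lie under the control values, those of Abca1 all lie above them, and the groups overlap in the other genes.

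In control liver the levels ran from 242 FPKM for Lcat, at the 97.7th percentile of all features tested by mean over the 6 rats, to 5.28 FPKM for Abcg8, at the 28.5th percentile. Between them came Npc2 (69.1 FPKM), Scarb1 (35.2), Pltp (22.6), Npc1 (18.9), Soat2 (17.1), Abcg5 (14.9), Abca1 (14.7) and Abcg1 (5.66). Lcat lay above Npc2, and Npc2 above Scarb1, in each of the 3 controls. From Scarb1 down to Abca1 the control ranges of neighbours overlapped, as did those of Abcg1 and Abcg8. In TPN liver Abca1 stood 5th of the 10 rather than 8th, and Npc1 stood 7th rather than 5th.

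Abcg8, which encodes one partner of the canalicular sterol exporter, had the lowest log2 fold change of the 10 genes. Abcg8 (ENSRNOG00000005420) measured 6.45, 3.17 and 6.21 FPKM in controls 1, 2 and 3 and 0.239, 2.20 and 0.850 FPKM in TPN rats 1, 2 and 3. Every TPN liver was lower than every control liver, and the nearest values were control 2 and TPN 2. The means were 5.28 ± 1.83 FPKM in control and 1.10 ± 1.003 FPKM in TPN (SD, n = 3), a ratio of 4.82. Its log2 fold change was -1.64 (95% interval -2.54 to -0.75, SE 0.38), and 0.739% of all features were as low or lower. Abcg8 did not pass (limma adjusted p = 0.195). Because its FPKM in TPN was near the pseudocount of 1, the log2 fold change was -2.50 with a pseudocount of 0.1 and -2.69 with 0.01 (limma adjusted p = 0.277 and 0.297). Without control 2 and TPN 1 it was -1.59 (limma adjusted p = 0.0714).

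Abcg5 (ENSRNOG00000005250), the partner of Abcg8 in the exporter, measured 15.8, 10.5 and 18.4 FPKM in the controls and 1.95, 10.2 and 8.44 FPKM in the TPN rats. The groups did not overlap, but control 2 and TPN 2 were almost level. The means were 14.9 ± 4.02 and 6.85 ± 4.33 FPKM (SD, n = 3), a ratio of 2.18, and the log2 fold change was -1.20 (95% interval -2.42 to 0.022, SE 0.51, limma adjusted p = 0.443). TPN 1 set much of that value, since without it the log2 fold change was -0.60 (limma adjusted p = 0.370). Without both control 2 and TPN 1 it was -0.81 (limma adjusted p = 0.135). These are bulk livers, in which fewer cells of a type and less RNA per cell cannot be told apart.

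The proportion of the 2 transcripts was also set side by side, since they encode 1 exporter. The ratio of Abcg5 to Abcg8 FPKM was 2.44, 3.32 and 2.97 in the controls and 8.18, 4.62 and 9.93 in the TPN rats. By these FPKM, with nothing added, all 3 TPN livers held more Abcg5 per Abcg8 than any control. The mean log2 ratio was 1.53 ± 0.22 in control and 2.85 ± 0.57 in TPN (SD, n = 3), a difference of 1.32. An exact 2-sided permutation test over the rats gave p = 0.1, which is the smallest p that 3 against 3 allows. With 1 FPKM added to both genes the difference was 0.45, and the ratio of TPN 1 then lay within the control range. Abcg8 was only at 0.239 FPKM in TPN 1 and 0.850 FPKM in TPN 3, so the ratios with nothing added rest on low values. With nothing added the difference ran from 1.09 to 1.64 when each rat was left out in turn.

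**Figure D2:**
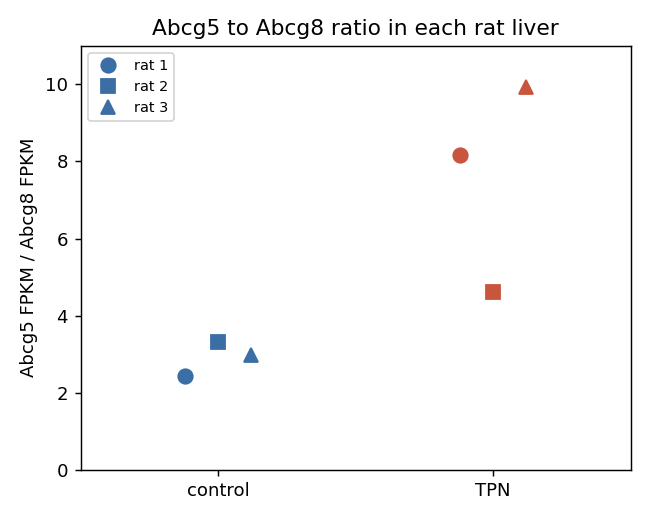
Ratio of Abcg5 FPKM to Abcg8 FPKM (vertical axis, linear from 0) in each control and TPN liver, with symbols for rats 1, 2 and 3. The controls lie between 2.44 and 3.32 and the TPN rats between 4.62 and 9.93. Nothing was added to the FPKM drawn, and with 1 FPKM added to both genes TPN 1 lies within the control range.

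Of the pair that carries cholesterol out of the lysosome, the transcript of the membrane protein had separate values in the groups, and that of the soluble protein had overlapping ones. Npc1 (ENSRNOG00000012016), the membrane transporter mutated in most Niemann-Pick type C disease, measured 22.9, 12.6 and 21.2 FPKM in the controls and 11.9, 11.2 and 10.6 FPKM in the TPN rats. The TPN rats were close together, and control 2 lay just above them. The means were 18.9 ± 5.53 and 11.2 ± 0.633 FPKM (SD, n = 3), a ratio of 1.68. Its log2 fold change was -0.66 (95% interval -1.19 to -0.13, SE 0.23, limma adjusted p = 0.348), and -0.95 without control 2 and TPN 1 (limma adjusted p = 0.0823). Npc2 (ENSRNOG00000012062), which hands cholesterol to NPC1, measured 64.6, 78.8 and 63.9 FPKM in the controls and 76.2, 85.5 and 53.3 in the TPN rats. TPN 3 was the lowest of the 6 and TPN 2 the highest, so the groups overlapped, with a log2 fold change of 0.031 (95% interval -0.48 to 0.55, limma adjusted p = 0.977), and 0.071 without control 2 and TPN 1.

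Abca1 (ENSRNOG00000018126), the exporter that starts HDL, was the one member with every TPN value above every control value. It measured 11.7, 15.9 and 16.4 FPKM in the controls and 24.2, 16.8 and 19.1 FPKM in the TPN rats. TPN 1 was the highest, while TPN 2 was almost level with control 3. The means were 14.7 ± 2.57 and 20.0 ± 3.79 FPKM (SD, n = 3), and the log2 fold change was 0.42 (95% interval -0.046 to 0.88, SE 0.20, limma adjusted p = 0.480). It was 0.27 without control 1 and 0.34 without control 2 and TPN 1 (limma adjusted p = 0.999 and 0.529).

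Abcg1 (ENSRNOG00000001158), which passes cholesterol to formed HDL and is prominent in macrophages, measured 4.79, 8.11 and 4.09 FPKM in the controls and 8.75, 4.40 and 4.17 FPKM in the TPN rats. The high values were control 2 and TPN 1, and the other 4 livers lay between 4.09 and 4.79 FPKM. Its log2 fold change was 0.0075 (95% interval -0.71 to 0.73, limma adjusted p = 0.995), and -0.037 without those rats. Among macrophage genes, Csf1r, Adgre1, Cd5l and Vsig4 showed the same order of rats within each group, though not over all 6 livers. Csf1r and Adgre1 are given here and were chosen after their values were seen. Csf1r, the receptor on which macrophages depend, measured 22.3, 42.6 and 20.1 FPKM in the controls and 51.5, 21.4 and 20.0 in the TPN rats. Adgre1, the F4/80 antigen, measured 7.07, 15.4 and 6.02 FPKM in the controls and 31.4, 8.53 and 6.09 in the TPN rats. Both were thus highest in control 2 and TPN 1. Of 10 Kupffer cell and macrophage markers 9 were measured and none was at 0. Control 2 was the highest control in 8 of the 9 and TPN 1 the highest TPN rat in 5, while Cd68, Cd163, Clec4f and C1qa were highest in TPN 2 among the TPN rats. Their summed level ran from 382 to 578 FPKM in control and from 483 to 766 FPKM in TPN. In that list 7 of 9 had positive log2 fold changes, with a median of 0.41, and 3 (Cd68, Cd163 and Marco) had every TPN value above every control value (8.02% of all features did), but none passed over all features. Leaving out control 2 gave a median of 0.70, leaving out TPN 1 gave 0.19, and leaving out control 3 gave 0.18. The part of these cells in the values of Abca1 and Abcg1 was not tested.

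Pltp (ENSRNOG00000016488), the phospholipid transfer protein that remodels HDL, measured 15.1, 38.0 and 14.8 FPKM in the controls and 48.3, 21.3 and 10.1 FPKM in the TPN rats. Control 2 and TPN 1 were again the highest of their groups, and the lowest of the 6 was TPN 3. With a log2 fold change of 0.099 the 95% interval ran from -1.36 to 1.56 (limma adjusted p = 0.974), the widest of the 10. Without those 2 rats the value was -0.021.

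Lcat (ENSRNOG00000019573), the plasma enzyme that esterifies cholesterol on HDL, was the most abundant member. It measured 271, 221 and 235 FPKM in the controls and 188, 216 and 208 FPKM in the TPN rats. All TPN values were lower, though TPN 2 and control 2 were close. The means were 242 ± 26.1 and 204 ± 14.4 FPKM (SD, n = 3), and the log2 fold change was -0.24 (95% interval -0.68 to 0.20, SE 0.19, limma adjusted p = 0.683). It was -0.16 without control 1 and -0.25 without control 2 and TPN 1.

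Scarb1 (ENSRNOG00000000981), the HDL receptor, measured 31.4, 32.3 and 41.8 FPKM in the controls and 47.2, 46.5 and 30.2 FPKM in the TPN rats. TPN 1 and TPN 2 lay above all controls and TPN 3 below all of them. The log2 fold change was 0.21 (95% interval -0.32 to 0.73, limma adjusted p = 0.783), and 0.049 without control 2 and TPN 1. It was 0.41 without TPN 3.

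Soat2 (ENSRNOG00000053769), the sterol acyltransferase of hepatocytes and enterocytes, measured 18.7, 13.6 and 18.9 FPKM in the controls and 11.9, 20.8 and 20.5 FPKM in the TPN rats. Control 2 and TPN 1 were the low ones here. The log2 fold change was 0.026 (95% interval -0.55 to 0.60, limma adjusted p = 0.981), and 0.13 without those rats. Soat1, the acyltransferase of most other cells, was scarcer, with 1.76, 2.80 and 1.04 FPKM in the controls and 5.06, 4.10 and 2.76 FPKM in the TPN rats. TPN 3 lay just under control 2, so the groups overlapped by those 2 rats (log2 fold change 0.81, 95% interval 0.20 to 1.43, limma adjusted p = 0.325).

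**Figure D3:**
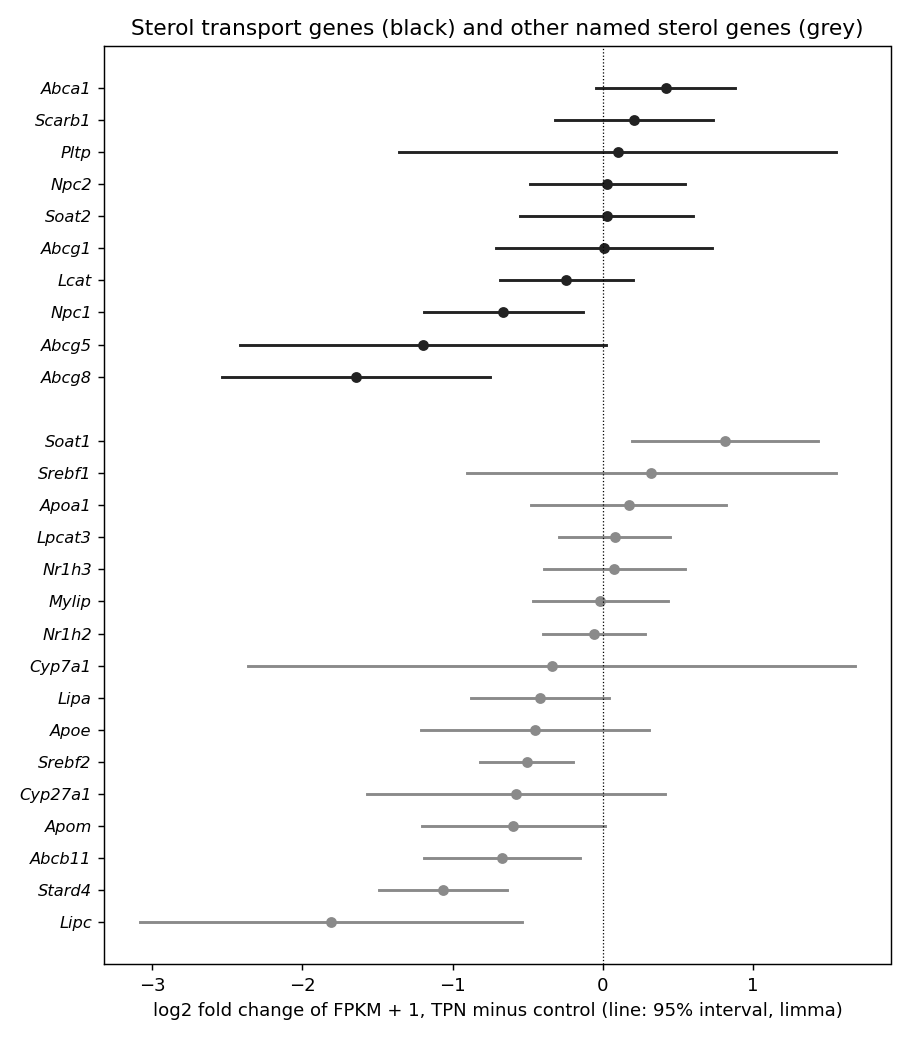
Log2 fold change of FPKM + 1, TPN minus control (horizontal axis), with limma's 95% interval, for the 10 genes (black) and 16 other named sterol genes (grey). Among the 10, the intervals of Abcg8 and Npc1 lie under 0, and none of the 26 genes passed the adjusted test.

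Within each group 1 rat stood apart from the other 2 in most members. Control 2 was the rat farthest from its group's mean log2(FPKM + 1) in 7 of the 10 genes and TPN 1 in 6. Abcg5, Abcg8, Lcat and Soat2 were lowest in both of these rats relative to their own groups, and Abcg1 and Pltp were highest in both. For example, TPN 1 lay 1.10 above its group's mean for Pltp, and its deviation for Abcg5 was -1.20. The corresponding deviations of control 2 were 0.86 and -0.43. These are the rats with the highest acute-phase transcripts of their groups. Of the 8 hepatocyte markers, control 2 was the lowest control in 5 and TPN 1 the lowest TPN rat in 5. Alb was lowest in both, at 32506 FPKM in control 2 and 12828 in TPN 1. Apob and Serpina1 went the other way and were highest of their groups in control 2 and TPN 1. The part of the acute-phase response in the members' values was not tested. With both rats left out Abcg8, Npc1 and Abcg5 were the members with the smallest adjusted p, as given above. The rats were singled out by values of these same data, and control 2 was the lowest control in each of these genes. That fit also called 121 features, against 28 with all rats, so it is no separate support for these members.

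**Figure D4:**
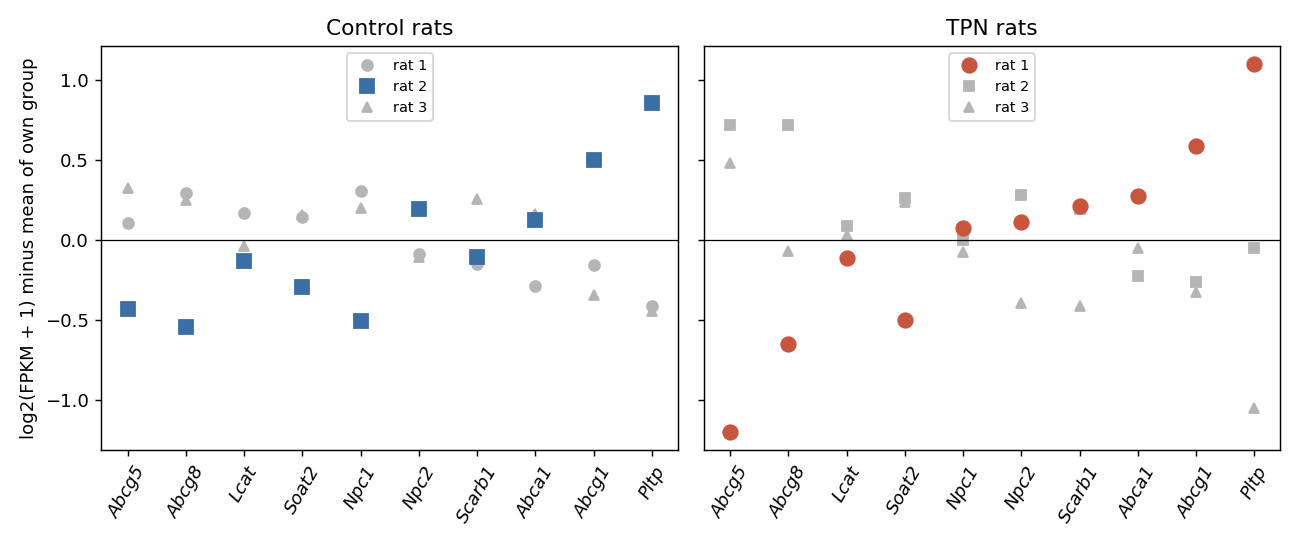
Deviation of log2(FPKM + 1) from the mean of the rat's own group (vertical axis) for the 10 genes, in control rats (left) and TPN rats (right). Control 2 and TPN 1 are drawn in colour, and both lie lowest in Abcg5, Abcg8, Lcat and Soat2 and highest in Abcg1 and Pltp.

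The genes around these 10 were read from 6 lists of the pathway, with 59 genes, of which 57 were in the table and 51 were tested. None passed in either direction. Of the 51, 36 had negative log2 fold changes (49.1% of all features did), 11 had every TPN value under every control value (9.09% of all features) and none had every TPN value above (8.02%). The median was -0.23.

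Of 10 HDL apolipoproteins and remodelling enzymes 9 were negative and 4 lower without overlap (9.09% of all features were), with a median of -0.77 that was -0.54 without TPN 1. Apoa2, the second protein of HDL, measured 708, 1131 and 790 FPKM in the controls and 329, 175 and 274 in the TPN rats (limma adjusted p = 0.0873). Its groups were far apart, yet it did not pass. Apoa1, the main protein of HDL and the acceptor for ABCA1, measured 2044 ± 183 FPKM in control and 2358 ± 683 FPKM in TPN (SD, n = 3; limma adjusted p = 0.873). Lipc, the hepatic lipase that trims HDL, measured 207, 91.2 and 171 FPKM in the controls and 18.2, 69.4 and 55.4 FPKM in the TPN rats. Every TPN value of Lipc was lower (log2 fold change -1.81, limma adjusted p = 0.303). Lipc passed in only 1 of 19 alternatives, without control 2 and TPN 1 (log2 fold change -1.58, limma adjusted p = 0.0375). That fit called 121 features, against 28 with all rats. Apoe measured 8236 ± 1193 and 6188 ± 1831 FPKM and Apom, which carries sphingosine-1-phosphate on HDL, 335 ± 65.0 and 223 ± 57.6 FPKM, control first (SD, n = 3; limma adjusted p = 0.650 and 0.443).

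Among intracellular carriers and hydrolases 11 of 18 were negative, 3 without overlap (9.09% of all features were), with a median of -0.14. Stard4, a soluble sterol carrier and a known SREBP2 target, measured 17.1, 16.2 and 22.4 FPKM in the controls and 7.28, 9.80 and 7.95 FPKM in the TPN rats. The groups were apart, with a log2 fold change of -1.06 (limma adjusted p = 0.0873). Stard4 passed in only 1 of 19 alternatives, with sample weights (limma adjusted p = 0.0326). That fit called 299 features, against 28 without weights. Lipa, the lysosomal acid lipase that frees the cholesterol NPC1 and NPC2 carry, measured 106 ± 19.9 and 78.7 ± 6.81 FPKM (SD, n = 3; limma adjusted p = 0.480).

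Of 6 uptake genes 4 were negative, 2 without overlap (9.09% of all features were), with a median of -0.13. Npc1l1, the sterol uptake protein that works against ABCG5 and ABCG8, was listed at 0 in all 6 livers. Of 4 canalicular genes 3 were negative, 2 of them without overlap (against the same 9.09%), with a median of -0.45. Abcb11, the bile salt export pump that drives the bile flow into which sterol is secreted, measured 178, 159 and 174 FPKM in the controls and 85.2, 140 and 101 FPKM in the TPN rats (limma adjusted p = 0.334). All 3 TPN values were lower.

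Of 5 genes that turn cholesterol into oxysterols or bile acids 4 were negative, none without overlap, with a median of -0.51. That median was -0.11 without TPN 1 and -0.92 without TPN 3. Cyp7a1, the rate-limiting enzyme of bile acid synthesis, ran from 16.3 to 59.1 FPKM in control and from 10.7 to 90.3 FPKM in TPN (limma adjusted p = 0.924). Cyp27a1, the sterol 27-hydroxylase, measured 123, 110 and 121 FPKM in the controls and 37.5, 101 and 127 FPKM in the TPN rats (limma adjusted p = 0.659), with TPN 1 low and the other TPN rats among the controls.

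The receptors themselves had values that overlapped between the groups. Of 8 genes of LXR and its partners 5 were negative, none without overlap, with log2 fold changes between -0.27 and 0.089 and a median of -0.077. Nr1h3, LXR-alpha, measured 57.1, 56.8 and 55.9 FPKM in the controls and 69.0, 45.9 and 67.2 FPKM in the TPN rats. The controls were close together and the TPN rats lay on both sides of them (log2 fold change 0.076, 95% interval -0.39 to 0.55, limma adjusted p = 0.930). Nr1h2, LXR-beta, measured 14.6 ± 1.09 and 14.0 ± 1.01 FPKM (SD, n = 3; limma adjusted p = 0.925).

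Known LXR targets did not lie on one side. Of 11 measured, 5 of which are among the 10 genes above, 5 were negative and 6 positive, with a median of 0.0075. Without overlap 3 were lower (9.09% of all features were) and 1 was higher (8.02%). Of the 6 that are not among the 10, Scd, the stearoyl-CoA desaturase, was lower without overlap, with 342 ± 139 FPKM in control and 90.1 ± 93.3 FPKM in TPN (SD, n = 3; limma adjusted p = 0.325). Mylip, a ubiquitin ligase, measured 2.45 ± 0.499 and 2.44 ± 0.694 FPKM and Lpcat3, a phospholipid acyltransferase, 37.2 ± 4.01 and 39.2 ± 0.634 FPKM (SD, n = 3; limma adjusted p = 0.985 and 0.900). Srebf1, the lipogenic factor that LXR induces, measured 24.0 ± 11.3 and 31.6 ± 18.2 FPKM (SD, n = 3; limma adjusted p = 0.869).

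SREBP2 targets were negative in 21 of 21 measured genes (49.1% of all features were), with 19 lower without overlap (9.09% of all features) and a median of -1.30. Dhcr7, Mvd and Msmo1, enzymes of cholesterol synthesis, fell (limma adjusted p = 0.0166, 0.0391 and 0.0422), where 0.22% of all features were called lower. With 1 rat left out in turn Dhcr7 passed only without control 2 or without TPN 1, and Mvd and Msmo1 only without control 2. Of the 19 alternatives Dhcr7 passed in 12, Mvd in 9 and Msmo1 in 5. No feature at all was called with no filter, with median-ratio scaling, with quantile normalisation or without TPN 3. Srebf2 itself measured 11.7, 12.6 and 11.8 FPKM in the controls and 7.91, 8.37 and 8.27 FPKM in the TPN rats, without overlap (log2 fold change -0.51, limma adjusted p = 0.225).

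The lists that mark inflammation and cell types were read in the same fit. Acute-phase genes were positive in 11 of 13 with a median of 1.20, and none passed. The median was -0.23 over the 8 hepatocyte genes, -0.052 over 6 sinusoidal endothelial genes, -0.64 over 4 stellate cell genes and -0.59 over 2 genes of cholangiocytes, the cells that line bile ducts, with no gene of these lists passing. The stellate median was -0.13 without TPN 3, -0.37 without control 3 and -0.40 without control 2. With no filter the stellate median was -0.24 and the cholangiocyte one -0.19. The summed level of the cholangiocyte list was 9.60 to 13.0 FPKM in control and 5.44 to 7.12 FPKM in TPN. Fabp2, the 1 enterocyte gene tested, had a log2 fold change of -0.32 (limma adjusted p = 0.672). All 3 erythroid genes were negative (49.1% of all features were), with a median of -1.63. Hbb and Alas2 fell (limma adjusted p = 0.0353 and 0.0418), where 0.22% of all features were called lower. With 1 rat left out in turn both passed only without control 2 or without TPN 1. Hbb passed in 11 of 19 alternatives, and Alas2 in 8 of the 18 that gave a value. Hbb has near-identical copies that share reads, so its value is uncertain.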

How the data were processed

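Liver RNA-seq of 3 control and 3 TPN rats was used, grouped by sample title. The authors deposited 1 table of FPKM, whose column names were matched to the sample titles. Per the submitters' processing notes, Bowtie 0.12.2, Cufflinks and the build Rnor_6.0 are named. The sources used here give neither their role and order nor the strandedness. Ratios of values under 0.3 FPKM between samples showed no steps of whole reads (at most 0.853% fell in 1 bin of 0.01 on the log2 scale), so depth is unknown and no counting interval is given.

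Features whose mean over the 6 samples reached 1 FPKM were tested as log2(FPKM + 1) with limma 3.58.1 (statmod 1.5.0, R 4.3.3; trend and robust moderation, group as the only term, 2-sided, Benjamini-Hochberg). The procedure was tested on simulated data. The ratio of Abcg5 to Abcg8 was tested by exact permutation in scipy 1.17.1. The members, the 17 lists (153 genes, 144 in the table, 129 tested), the tests and the alternatives were chosen with earlier results of these data known. Named genes were all 10 members, 19 genes fixed by name (Abcb4 had no row under that symbol, and 1 is not reported here) and any listed gene that passed. Genes named beyond that rule (Apoa2, Scd, Lcn2, Alb, Fabp2 and the macrophage and enterocyte markers) were chosen after their values were seen. Promoter sequences are from RefSeq (GRCr8), matched by symbol. Alternatives were pseudocounts, filters, scalings, moderation, sample weights, a block for the replicate number, summed rows of 1 symbol, each rat left out, and control 2 and TPN 1 left out together. Figures were drawn with matplotlib 3.10.9.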

Additional observations from a re-analysis of the deposited data

How the results depend on the processing

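No member passed under any of the 19 alternatives, where the smallest limma adjusted p was 0.0596 (Npc1, sample weights). Abcg8 has no value with a minimum mean of 5 FPKM. Abcg5, Abcg8, Npc1, Lcat, Abca1 and Scarb1 kept their sign in all alternatives that gave a value. The count of features called, 28, was 18 and 5 with pseudocounts of 0.1 and 0.01, 6 with a minimum mean of 5 FPKM, 8 without trend and robust settings, 299 with sample weights and 121 without control 2 and TPN 1. It was 0 by limma with no filter, with median-ratio scaling and with quantile normalisation, where 1898, 1556 and 1591 features had an unadjusted p under 0.05. Leaving out each rat gave 0 to 46, with 0 without TPN 3 (1393 at an unadjusted p under 0.05), 1 without TPN 2, 3 without control 1, 6 without control 3 and 46 without control 2. With the replicate number as a block 58 were called, though the labels state no pairing of the rats. Deviations from the group means correlated at -0.21, -0.14 and 0.32 between rats of the same number, and control 2 correlated best with TPN 1 (0.42). The deviations add up to 0 within each small group, so these correlations cannot decide whether the numbers pair the rats. Signs turned in 4 members and 5 other named genes. With each rat left out in turn, Abcg1 ran from -0.29 to 0.26, Npc2 from -0.11 to 0.23, Pltp from -0.45 to 0.62, Soat2 from -0.12 to 0.28, Nr1h3 from -0.026 to 0.26, Srebf1 from -0.093 to 0.78, Apoa1 from -0.052 to 0.33, Cyp7a1 from -1.20 to 0.29 and Mylip from -0.15 to 0.14. Without control 2 and TPN 1 together, the values were -0.037 for Abcg1, -0.021 for Pltp, -0.024 for Nr1h3, -0.12 for Apoa1 and 0.28 for Cyp7a1. Mylip was 0.0048 with quantile normalisation, 0.00021 with TPM and 0.080 with sample weights, which also gave -0.15 for Nr1h3. With a minimum mean of 5 FPKM the median was -0.61 over the uptake genes, -1.23 over the stellate genes and -2.55 over the erythroid genes. The cause was not tested.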
